A study of Mus musculus with 10 samples.

Results

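The comparison described here sets 4 lung libraries of mice given recombinant TSLP before LPS (LPS+TSLP) against 3 lung libraries of mice given vehicle (Vehicle), across all genes. These are 7 of the 10 libraries of the study, taken by their labelled treatment, and the remaining 3 (LPS without TSLP) enter the same fit, so they bear on the spread behind each call, and are given beside the comparison. All mice are labelled wild type and every library was made from whole lung RNA. Doses, routes, times, age, sex and the number of animals behind a library are not given in the sources used here, so p-values measure the spread between these samples, which may be technical. There is no group given TSLP without LPS, so the comparison holds the joint effect of both agents. Of 54532 genes in the table, 31040 had at least 1 count and 17139 were tested.

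LPS, lipopolysaccharide of the bacterial outer membrane, is sensed through CD14 and TLR4, which switch on NF-kB genes (cytokines, chemokines, feedback inhibitors) and, through a second adaptor, type I interferon and the interferon-stimulated genes. In the lung this brings in neutrophils and monocytes while endothelium, epithelium and fibroblasts lower many of their resting genes. Epithelial cells release TSLP (thymic stromal lymphopoietin), whose receptor pairs CRLF2 with IL7R, signals to STAT5 and is found on dendritic cells, mast cells and type 2 lymphocytes.

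Total counts were between 16175172 and 18374461 per library. The defining genes of epithelium (Sftpc, Ager, Scgb1a1, Foxj1), endothelium (Pecam1, Cdh5), stroma (Col1a1, Acta2) and leukocytes (Ptprc) were present in all 10 libraries. LPS+TSLP replicate 1 stood apart on the second principal component (-101, against 11.6 to 34.3 in the other LPS+TSLP libraries), and its mitochondrial share of counts was 13.1%. That share was 6.5%, 5.35% and 2% in replicates 2 to 4 and between 1.11% and 1.27% in Vehicle. LPS replicate 1 differed from the other 9 libraries in its sex-linked transcripts (Xist 190 CPM, against 0 to 0.455). The Y-linked Ddx3y had 8.05, 6.15 and 11.9 CPM in Vehicle and 57.7, 96.1, 78.4 and 92.4 CPM in LPS+TSLP, without overlap, and 0, 70.6 and 89.3 CPM in LPS. The part of these differences in the results was not tested. Counts scaled to the library total (counts per 1e6, CPM) are given per library in replicate order. In bulk tissue, fewer cells of a type and less RNA per cell cannot be told apart.

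When TSLP had been given before LPS, 1511 genes were higher than in Vehicle (8.82% of those tested) and 917 were lower (5.35%), at an adjusted p under 0.05 (edgeR quasi-likelihood, Benjamini-Hochberg over 17139 genes). The change was at least 2-fold for 1246 and 454 of them. Called or not, 2353 genes tested (13.7%) had all 4 LPS+TSLP libraries above all 3 Vehicle libraries, and 3133 (18.3%) had all 4 below. Called under all 22 fits, which varied the scaling, filter, tool, GC correction and the libraries used, were 237 higher genes (1.38%) and 58 lower genes (0.338%). The calls rested most on 4 libraries: 435 genes were higher and 81 lower without Vehicle replicate 1, 404 and 117 without Vehicle replicate 2, 833 and 205 without LPS+TSLP replicate 2, and 833 and 181 without LPS+TSLP replicate 3, while lower genes numbered 1478 without LPS+TSLP replicate 4. With only the groups compared in the fit, 1340 were higher and 918 lower. Beside a gene below, the libraries whose removal ended its call are named. In the same fit LPS against Vehicle had 2437 higher (14.2%) and 1836 lower genes (10.7%), with the Vehicle libraries shared between both comparisons. The direct test of LPS+TSLP against LPS called 0 genes, with 1388 at an unadjusted p under 0.05, and DESeq2 called 35. A larger count in one comparison than in the other is therefore no test that a gene differed between the LPS-treated groups.

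Of 56 gene lists, 30 had members called in 1 direction, 22 in both and 4 in neither. The shares over all genes tested, to be set beside every list below, were 8.82% higher and 5.35% lower. Many list counts below fell, some to 0, when 1 Vehicle or LPS+TSLP library was left out, and examples of such counts are given with the lists. The largest shares of risen members were in the mitochondrially encoded mRNAs, interferon-stimulated genes, inflammasome and cell death genes and platelet markers. The largest shares of fallen members were in Notch genes, type 2 cell markers, erythroid transcripts, markers of fat and muscle, collagens and cholesterol synthesis genes.

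**Figure D1:**
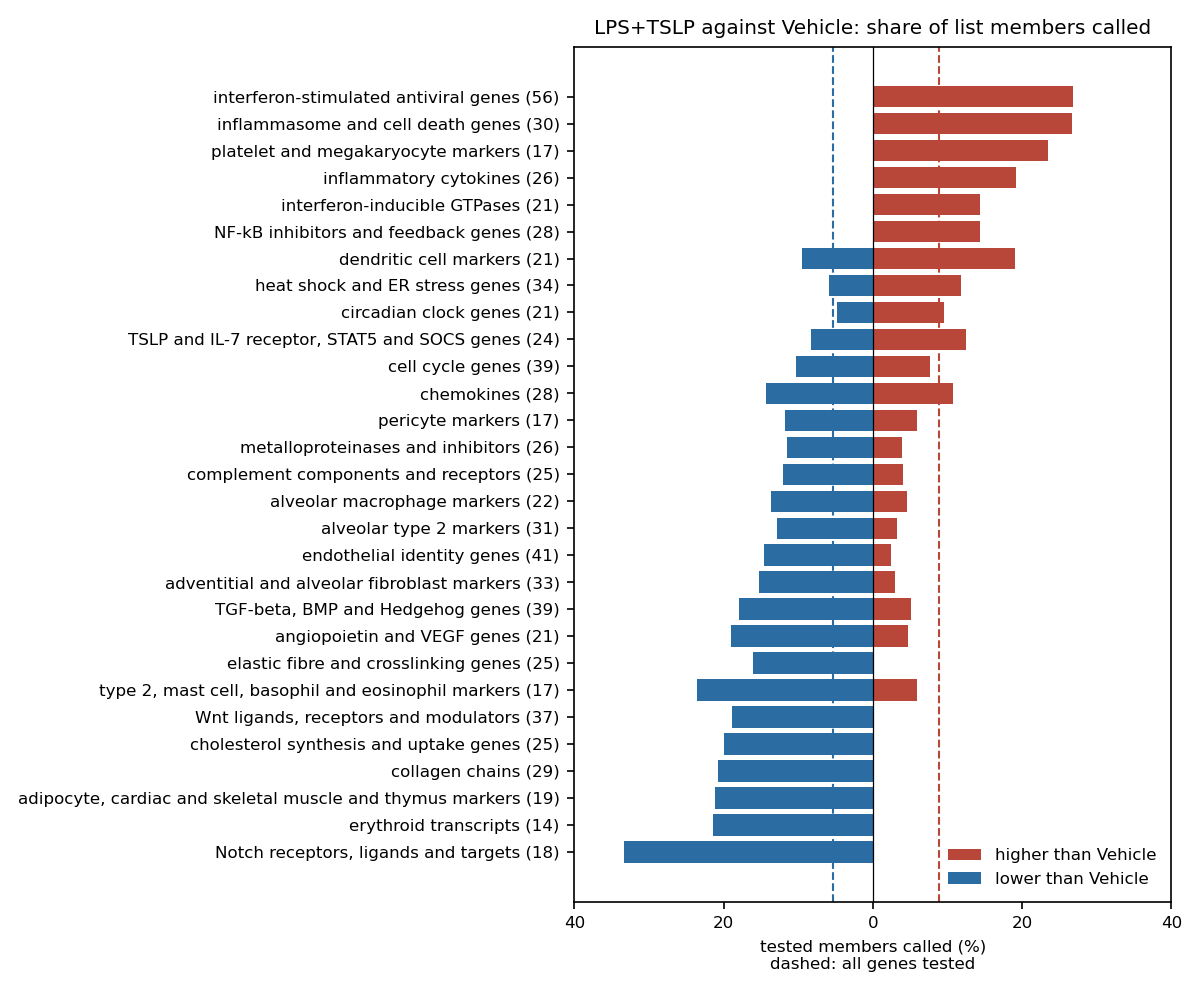
Share of tested members (number in brackets) called higher (red, to the right) or lower (blue, to the left) in LPS+TSLP against Vehicle, in percent, for lists with at least 14% of members called in total. The mitochondrially encoded mRNAs, all 13 of which were higher, are left out, and dashed lines mark the shares over all genes tested (8.82% higher, 5.35% lower).

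Part of the interferon-stimulated genes stayed above Vehicle. Of 56 antiviral interferon-stimulated genes, 15 rose, 0 fell and 41 did not pass (26.8% higher, against 8.82% of all genes), and their median log2 fold change was 1.14, against 0.03 over all genes. With 1 library left out the count was lowest without Vehicle replicate 1 or 2 (8 each) and highest without LPS+TSLP replicate 4 (28). LPS against Vehicle gave 29 higher and a median of 1.52. Interferon-inducible GTPases, which attack vacuoles that hold pathogens, had 3 of 21 higher and a median of 1.36, with 1 higher without Vehicle replicate 1 or 2 or LPS+TSLP replicate 3 and 9 without Vehicle replicate 3. With each library's trend with GC content removed, 5 and 1 members were still higher, and the medians were 1.09 and 1.06.

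Ifit1, which binds foreign RNA caps (chromosome 19, 34640871 to 34650009, GRCm38), had 3.14, 13 and 14.2 CPM in Vehicle and 136, 101, 254 and 65.8 CPM in LPS+TSLP. All 4 treated libraries lay above all 3 Vehicle libraries, and Ifit1 rose by 3.82 on the log2 scale (SE 0.58, adjusted p = 0.0038). Gbp7, a guanylate-binding GTPase (chromosome 3, 142530342 to 142550149), had 12.7, 13.2 and 28.9 CPM in Vehicle and 85.2, 115, 253 and 155 CPM in LPS+TSLP, a rise of 3.09 (SE 0.43, adjusted p = 0.0026). Slfn5, a Schlafen family member (chromosome 11, 82951349 to 82964840), went from 34.7, 48.7 and 79.6 CPM to 348, 233, 367 and 216 CPM, a rise of 2.46 (SE 0.32, adjusted p = 0.0023). The 3 genes kept their calls under all 22 fits, as did Eif2ak2, the RNA-sensing kinase PKR (rise of 2.23, SE 0.4, adjusted p = 0.007), and Mndal, an interferon-inducible nuclear protein, (2.75, SE 0.42, adjusted p = 0.0038). The value of Mndal was 1.44 with the GC trend removed, and 26.4% of its 50-base stretches also occur in other genes.

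The bases before the start of Ifit1, Gbp7 and Slfn5 are shown as examples of the interferon genes that kept their calls under all 22 fits. They are the 250 bases upstream of the RefSeq start (GRCm38.p6, all on the plus strand), with every match to the core of the interferon-stimulated response element, GAAANNGAA or its reverse complement, in capitals. They lie at chr19:34640639-34640888 (Ifit1), chr3:142530086-142530335 (Gbp7) and chr11:82951852-82952101 (Slfn5). The gene positions given above come from another annotation. Its start lies before the whole Slfn5 stretch and inside the Ifit1 stretch, so these are upstream of the RefSeq start only.
Ifit1: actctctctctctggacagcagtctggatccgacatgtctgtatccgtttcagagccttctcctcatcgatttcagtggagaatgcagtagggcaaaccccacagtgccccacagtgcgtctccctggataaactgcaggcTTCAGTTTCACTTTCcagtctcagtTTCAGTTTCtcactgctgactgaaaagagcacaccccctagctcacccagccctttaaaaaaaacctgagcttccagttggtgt
Gbp7: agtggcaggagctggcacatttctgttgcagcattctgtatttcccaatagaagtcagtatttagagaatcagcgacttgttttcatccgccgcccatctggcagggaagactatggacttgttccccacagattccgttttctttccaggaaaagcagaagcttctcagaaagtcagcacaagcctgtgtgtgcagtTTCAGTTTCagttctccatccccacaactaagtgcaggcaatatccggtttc
Slfn5: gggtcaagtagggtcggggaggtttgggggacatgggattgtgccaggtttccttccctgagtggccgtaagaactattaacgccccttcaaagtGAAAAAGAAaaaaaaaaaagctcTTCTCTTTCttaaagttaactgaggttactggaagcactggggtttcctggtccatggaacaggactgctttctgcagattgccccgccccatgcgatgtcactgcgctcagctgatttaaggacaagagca
Ifit1 had 3 matches, some overlapping, Slfn5 had 2 and Gbp7 had 1. Eif2ak2, Mndal and the Schlafen family member Slfn9, also called under all 22 fits, are not shown. Eif2ak2 had 0 matches, Slfn9 had 1 and Mndal had 1 before each of its starts. Of 16 called members of both interferon lists with a promoter in the RefSeq table, 11 held the core (68.8%), as did 27 of 42 uncalled members (64.3%), against 8.18% of 27025 genes with a promoter. It was in 8.15% of promoters of all genes called higher and 4.93% of those called lower. The GAS core, TTCNNNGAA, was in 3 of the 16 (18.8%, against 8.13% of all), searched likewise on both strands. A match describes these letters and is not a measured binding site.

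Other interferon genes were high in some treated libraries only. Irf7, the transcription factor that amplifies interferon production, had 41.1, 197 and 149 CPM in Vehicle and 672, 276, 624 and 152 CPM in LPS+TSLP (log2 difference 1.78, SE 0.59, adjusted p = 0.063). Isg15, a ubiquitin-like modifier, had 390, 85.1, 274 and 47.4 CPM against 12.6, 89.7 and 56.1 CPM (1.97, SE 0.77, adjusted p = 0.1). Replicate 4 overlapped Vehicle in both genes and replicate 2 in Isg15, while replicates 1 and 3 lay above it, and without LPS+TSLP replicate 4 both passed, Irf7 also by the DESeq2 Wald test (adjusted p = 0.0066). Among interferon receptors and transcription factors 0 of 23 rose and 1 fell: Irf4, a factor of lymphocytes and dendritic cells, with 17.8, 19.6 and 12.3 CPM in Vehicle and 7.23, 4.49, 6.55 and 7.78 CPM in LPS+TSLP (fell by 1.31, SE 0.29, adjusted p = 0.016; up to 0.08 without Vehicle replicate 1 or 2). Gvin1 and Iigp1, the other GTPases that passed, had values of 3.24 and 2.51, but 99.1% of the 50-base stretches of Gvin1 are shared, and their calls ended with the GC trend removed (2.1, adjusted p = 0.063, and 1.33, adjusted p = 0.14) and without Vehicle replicate 1 or 2 or LPS+TSLP replicate 3 (adjusted p up to 0.098 and 0.13), Iigp1 also without LPS replicate 2 or LPS+TSLP replicate 2.

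**Figure D2:**
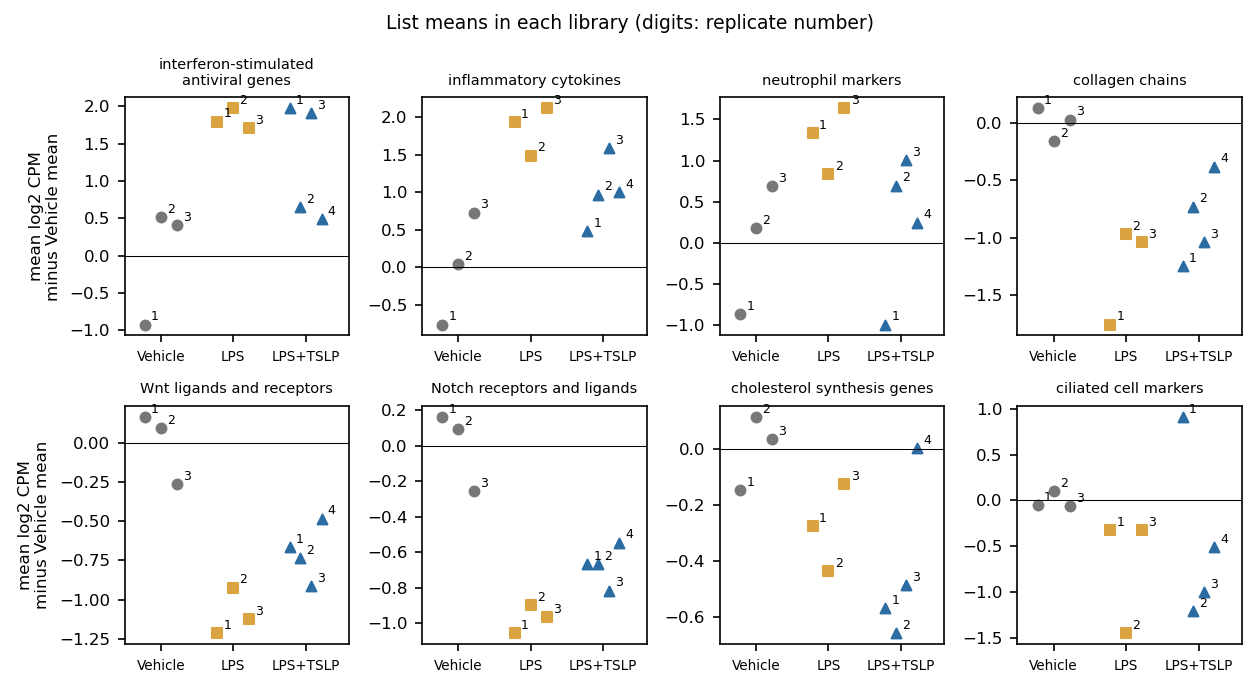
Mean log2 CPM of the tested members of 8 lists in each library, minus the mean of the 3 Vehicle libraries; digits are replicate numbers. LPS+TSLP replicates 2 and 4 lie near Vehicle replicates 2 and 3 in the interferon panel, all 4 LPS+TSLP libraries lie below Vehicle for collagen, Wnt and Notch genes, and replicate 1 lies lowest for neutrophil markers and highest for ciliated cell markers.

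Of 26 inflammatory cytokines, 5 rose, 0 fell and 21 did not pass (19.2%; median 1.13), where LPS against Vehicle had 12 higher (median 1.77). The count was 0 without Vehicle replicate 1 or 2 or LPS+TSLP replicate 2 or 3, 9 without Vehicle replicate 3 and 3 with the GC trend removed. Those that rose included the IL-1 receptor antagonist Il1rn, with 17.4, 51.6 and 140 CPM in Vehicle and 306, 275, 471 and 219 CPM in LPS+TSLP (rise of 2.24, SE 0.58, adjusted p = 0.029). Il1a, an IL-1 agonist, rose by 2.98 (SE 0.75, adjusted p = 0.026), Csf2, the growth factor GM-CSF, by 2.03 (SE 0.48, adjusted p = 0.021), and Tnfsf9, the costimulatory 4-1BB ligand, by 1.05 (SE 0.27, adjusted p = 0.026). Each of these 4 calls ended without any 1 of Vehicle replicates 1 and 2 and LPS+TSLP replicates 2 and 3, where the adjusted p went up to 0.12, 0.11, 0.098 and 0.13 in that order, and that of Il1a also with the GC trend removed (2.12, adjusted p = 0.063).

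Il1b, Tnf and Il6, the best known LPS cytokines, did not pass against Vehicle as tested. Il1b had 15.4, 63.8 and 145 CPM in Vehicle and 88.7, 152, 337 and 130 CPM in LPS+TSLP (1.27, SE 0.66, adjusted p = 0.2). Tnf had 1.31, 6.69 and 21 CPM against 24.4, 50.9, 81.8 and 27.4 CPM, without overlap (2.29, SE 0.73, adjusted p = 0.058), and passed without Vehicle replicate 3 or LPS+TSLP replicate 4, by the DESeq2 Wald test (adjusted p = 0.027) and by limma-voom (adjusted p = 0.034). Tnf also passed with the replicate block, with or without the GC trend removed. Il6 was at 1.37 (adjusted p = 0.3). Vehicle replicate 3 was the highest Vehicle library and replicate 1 the lowest for all 3, and without replicate 3 Il6, Cxcl1, Cxcl2, Cd14 and Saa3 passed too. The anti-inflammatory Il10 had 0.514, 0.163 and 0.227 CPM in Vehicle, 0.556, 0.35, 0.278 and 0.122 CPM in LPS+TSLP, and 1.06, 0.968 and 1.44 CPM in LPS. Its value against Vehicle was 0.15 (SE 0.64, adjusted p = 0.89) and changed sign between fits, and LPS+TSLP against LPS gave -1.84 (adjusted p = 0.59).

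Chemokines were called both ways, with 3 of 28 higher (10.7%, near the 8.82% of all genes) and 4 lower (14.3%, against 5.35% of all genes). The higher ones numbered 0 without Vehicle replicate 1 or 2 and 8 without LPS+TSLP replicate 4, and the lower ones 0 without Vehicle replicate 2 and 1 without LPS+TSLP replicate 3. Higher were attractants of monocytes and neutrophils. Ccl4 had 2, 4.57 and 14.4 CPM in Vehicle and 43.3, 39, 133 and 41.7 CPM in LPS+TSLP (rise of 3.24, SE 0.71, adjusted p = 0.016; 0.081 without Vehicle replicate 2, and also lost without Vehicle replicate 1). Ccl3 rose by 3.89 (SE 1, adjusted p = 0.03), by 5.94 without Vehicle replicate 3, and not beyond the threshold without Vehicle replicate 1 or 2 or LPS+TSLP replicate 2 or 3 (adjusted p up to 0.12). Neutrophil attractants Cxcl1 and Cxcl2 (1.42, adjusted p = 0.2, and 3.88, adjusted p = 0.065), the monocyte attractant Ccl2 (1.06, adjusted p = 0.34) and the T cell attractant Cxcl10 (2.2, adjusted p = 0.15) did not pass. Cxcl2 passed by the DESeq2 Wald test (adjusted p = 0.017), by limma-voom (adjusted p = 0.037), without Vehicle replicate 3 (6.65) and without LPS+TSLP replicate 1 (4.26). It also passed with the replicate block and without both LPS+TSLP replicate 1 and LPS replicate 1.

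The 4 chemokines that fell were all of the CC class. Ccl8 had 7.88, 15.4 and 19.5 CPM in Vehicle and 5.25, 1.46, 2.11 and 1.7 CPM in LPS+TSLP, below every Vehicle library (fell by 2.38, SE 0.48, adjusted p = 0.012; 0.055 without Vehicle replicate 2). Ccl24, eotaxin-2, fell by 3.34 (SE 0.76, adjusted p = 0.018; 0.077 without Vehicle replicate 2, also lost without LPS+TSLP replicate 3 and, by limma-voom, at 0.075), and Ccl11, eotaxin-1, by 1.98 (SE 0.58, adjusted p = 0.044). Both overlapped Vehicle, and Ccl11 held its call in 2 of 10 fits with 1 library left out (those without Vehicle replicate 1 or LPS replicate 3), with -1.31 (adjusted p = 0.21) without Vehicle replicate 2. Ccl6 had 210, 232 and 228 CPM in Vehicle and 87.5, 108, 125 and 169 CPM in LPS+TSLP (fell by 0.83, SE 0.22, adjusted p = 0.03; up to 0.096 without Vehicle replicate 1 or 2 or LPS+TSLP replicate 2 or 3), with 197, 166 and 208 CPM in LPS.

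Of 28 NF-kB inhibitors and feedback genes 4 rose and 0 fell (14.3%; median 0.55), with 1 higher without Vehicle replicate 1 or 2 or LPS+TSLP replicate 3 and 10 without LPS+TSLP replicate 1. Tnip3, an inhibitor that binds A20, had 1.54, 3.32 and 4.2 CPM in Vehicle and 7.98, 18.6, 16.9 and 13.1 CPM in LPS+TSLP (rise of 2.26, SE 0.38, adjusted p = 0.0054), and was called under all 22 fits, at 1.21 with the GC trend removed. Nfkbia, the inhibitor IkB-alpha, rose by 1.26 (SE 0.29, adjusted p = 0.019; up to 0.1 without Vehicle replicate 1 or 2 or LPS+TSLP replicate 3), and Ikbke, a kinase of the interferon pathway, by 2.11 (SE 0.55, adjusted p = 0.03; up to 0.13 without Vehicle replicate 1 or 2 or LPS+TSLP replicate 2 or 3). Inflammasome and cell death genes had 8 of 30 higher (26.7%; median 0.73), with 1 without Vehicle replicate 2, 2 without Vehicle replicate 1, 11 without LPS+TSLP replicate 4 and 4 with the GC trend removed. Bcl2a1b, an anti-apoptotic BCL2 relative of myeloid cells, rose from 3.26, 4.79 and 7.43 CPM to 20, 26.4, 41.8 and 14.5 CPM (2.35, SE 0.4, adjusted p = 0.0057; all 22 fits), but 78.1% of its 50-base stretches are shared with its copies. Pmaip1, the pro-apoptotic NOXA, rose by 1.24 (SE 0.23, adjusted p = 0.0086), and its value was 0.45 (adjusted p = 0.18) with the GC trend removed and its adjusted p 0.05 without Vehicle replicate 2.

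Of 28 LPS receptor and Toll-like receptor genes, 1 rose and 1 fell, and without LPS+TSLP replicate 1, 4 rose. Tlr3, the sensor of double-stranded RNA, rose by 1.16 (SE 0.24, adjusted p = 0.012), with 0.18 (adjusted p = 0.6) once the GC trend was removed, and was lost without Vehicle replicate 1 or 2 (adjusted p up to 0.073). Tlr5, the flagellin receptor, had 13.3, 8.65 and 9.7 CPM in Vehicle and 1.55, 4.08, 1.78 and 3.53 CPM in LPS+TSLP (fell by 1.91, SE 0.44, adjusted p = 0.018; lost without Vehicle replicate 1 or LPS+TSLP replicate 3, up to 0.08). Cd14 was at 1.35 (adjusted p = 0.1; 0.03 by the DESeq2 Wald test, 0.047 without Vehicle replicate 3 and 0.037 without LPS+TSLP replicate 1). It also passed without both LPS+TSLP replicate 1 and LPS replicate 1. Ptgs2, the inducible prostaglandin synthase, rose by 2.45 (SE 0.62, adjusted p = 0.026), with 1.33 (adjusted p = 0.11) once the GC trend was removed, and was lost without Vehicle replicate 1 or 2 or LPS+TSLP replicate 2 or 3 (up to 0.11). Nos2, the inducible nitric oxide synthase, was at 0.72 (adjusted p = 0.4).

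Acute phase proteins had 0 of 26 called, with a median of 0.42 (0.97 for LPS) and 4 higher without Vehicle replicate 3. Saa3, serum amyloid A3, had 6.85, 256 and 1230 CPM in Vehicle and 2980, 2780, 3580 and 2880 CPM in LPS+TSLP, all above Vehicle, with a value of 2.67 (SE 1.1, adjusted p = 0.12). The wide spread of the Vehicle libraries was in this gene larger than that of the treated ones. Lcn2, the iron-sequestering lipocalin, was at 1.55 (adjusted p = 0.2).

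Few neutrophil markers passed. Of 35, 1 rose and 0 fell (2.86%), and the median was 0.17, where LPS against Vehicle had 11 higher and a median of 1.67, and the direct comparison of LPS+TSLP with LPS had a median of -0.91 with 0 calls. Their summed level was 1090, 3020 and 5330 CPM in Vehicle, 2480, 7320, 8020 and 6460 CPM in LPS+TSLP and 13500, 9220 and 10400 CPM in LPS. The member that rose was the integrin chain Itgam (1.89, SE 0.38, adjusted p = 0.012; 0.06 without Vehicle replicate 2), 84.6% of whose 50-base stretches also occur in another annotated gene. S100a8, a calprotectin subunit abundant in neutrophils, had 86, 125 and 259 CPM in Vehicle and 22.6, 284, 299 and 210 CPM in LPS+TSLP (0.41, SE 0.63, adjusted p = 0.69). Without LPS+TSLP replicate 1 the list had 3 higher and a median of 0.53, and without Vehicle replicate 3, 5 higher.

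Dendritic cell markers moved both ways, with 4 of 21 higher (19%, against 8.82% of all genes) and 2 lower (9.52%, against 5.35%). Higher members numbered 2 without Vehicle replicate 1 or 2, and lower ones 1 without Vehicle replicate 1. Clec9a, the receptor of cross-presenting dendritic cells that senses dead cells, had 10.1, 7.95 and 10.9 CPM in Vehicle and 25.3, 46.6, 39.5 and 35.4 CPM in LPS+TSLP (rise of 1.96, SE 0.24, adjusted p = 0.0022). Tcf4, which specifies plasmacytoid dendritic cells and is also made in other tissue cells, had 41.5, 29.5 and 47.3 CPM against 180, 206, 205 and 184 CPM (rise of 2.33, SE 0.21, adjusted p = 0.00046). The lectin Mgl2 of the conventional dendritic cells that prime type 2 responses fell from 26.6, 43.2 and 26.2 CPM to 7.05, 5.95, 4 and 7.3 CPM (by 2.36, SE 0.36, adjusted p = 0.0038). These 3 calls held under all 22 fits, and in each the groups did not overlap. Itgae, the integrin CD103 of airway dendritic cells and resident T cells, fell by 1.78 (SE 0.35, adjusted p = 0.01; 0.059 without Vehicle replicate 1).

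Other leukocyte genes called under all 22 fits were Cd80, a costimulatory ligand (rise of 2.23, SE 0.43, adjusted p = 0.0095), Rora, a nuclear receptor of the clock and of type 2 innate lymphoid cells (1.87, SE 0.25, adjusted p = 0.0024), and Ebf1, a factor of B cells and of pericytes (1.09, SE 0.21, adjusted p = 0.0097). Of 17 type 2, mast cell, basophil and eosinophil markers 1 rose and 4 fell (23.5%; 1 without Vehicle replicate 2 or LPS+TSLP replicate 3), the fallen ones including Ccl24, Ccl11 and Siglecf, a lectin of eosinophils and alveolar macrophages (fell by 2.42, SE 0.53, adjusted p = 0.015; 0.085 without Vehicle replicate 1). Alveolar macrophage markers had 1 of 22 higher and 3 lower (1 lower without Vehicle replicate 1, 3 higher without LPS+TSLP replicate 1), among them the lipid droplet gene Cidec, with 23.6, 16.8 and 8.05 CPM in Vehicle and 2.6, 4.61, 2.89 and 3.53 CPM in LPS+TSLP (fell by 2.21, SE 0.38, adjusted p = 0.0059; all 22 fits), which fat cells express as well. NK and cytotoxic markers had 0 of 24 called in either direction (6 higher without LPS+TSLP replicate 4), and T cell markers 2 higher and 1 lower of 28 (0 higher without Vehicle replicate 1 or 2 or LPS+TSLP replicate 2 or 3 and with the GC trend removed). B cell markers had 1 higher (Ebf1) and 0 lower of 25, but their median was -0.35. With the GC trend removed, or without Vehicle replicate 3, 2 of the B cell markers were lower. The monocyte receptor Ccr2 rose by 1.55 (SE 0.37, adjusted p = 0.023), and its value with the GC trend removed was 0.37 (adjusted p = 0.52). It was also lost without Vehicle replicate 1 or 2 or LPS+TSLP replicate 3 (up to 0.088).

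Of 17 platelet and megakaryocyte markers 4 rose and 0 fell (23.5%; median 0.79, and 0.29 for LPS), with 0 higher without Vehicle replicate 1 or 2 or LPS+TSLP replicate 2. Their summed level, 393 to 803 CPM in Vehicle and 509 to 1030 CPM in LPS+TSLP, overlapped. The platelet chemokine precursor Ppbp had 10.6, 14.6 and 15.5 CPM against 33.8, 34, 26.7 and 20.5 CPM (rise of 1.12, SE 0.26, adjusted p = 0.02; 0.5, adjusted p = 0.23, with the GC trend removed). Platelet factor 4 (Pf4) rose by 0.96 (SE 0.26, adjusted p = 0.034) and Gp9, part of the von Willebrand factor receptor, by 1.23 (SE 0.37, adjusted p = 0.047). Gp9 was called in 9 of 22 fits, and without Vehicle replicate 1 or 2 or LPS+TSLP replicate 2 none of the 3 passed (adjusted p up to 0.1, 0.15 and 0.18), nor Pf4 and Gp9 without LPS+TSLP replicate 3. Gp9 was also lost without Vehicle replicate 3, any 1 LPS library or LPS+TSLP replicate 1, so it held only without LPS+TSLP replicate 4. Of 14 erythroid transcripts 3 fell and 0 rose (21.4%; 1 lower without Vehicle replicate 1 or 2 or LPS+TSLP replicate 2 or 3). Alas2, the first enzyme of haem synthesis in red cells, fell from 111, 114 and 70.4 CPM to 6.99, 29.6, 26.4 and 20.9 CPM (by 2.21, SE 0.43, adjusted p = 0.0097).

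Neither Tslp nor its specific receptor chain passed. Tslp had 1.2, 2.18 and 0.454 CPM in Vehicle and 2.66, 4.84, 2.33 and 1.52 CPM in LPS+TSLP (1.18, SE 0.65, adjusted p = 0.23; -0.06 with the GC trend removed). Its receptor chain Crlf2 had 43.9, 55.8 and 63.6 CPM against 67.2, 69.7, 101 and 53 CPM (0.45, SE 0.22, adjusted p = 0.18), and the groups overlapped. Crlf2 passed with the replicate block and the GC trend removed together. The other chain, Il7r, rose by 1.55 (SE 0.45, adjusted p = 0.043), but its value was 0.52 (adjusted p = 0.33) with the GC trend removed and it passed in 3 of 10 fits with 1 library left out (those without Vehicle replicate 3, LPS replicate 1 or LPS+TSLP replicate 1; adjusted p up to 0.17 in the others). Of the 24 receptor, STAT5 and SOCS genes 3 rose and 2 fell (12.5% and 8.33%, against 8.82% and 5.35% of all genes), with 0 in either direction without Vehicle replicate 1 or 2. The risen members were Il7r, Bcl2 and Bcl2l1, and no SOCS gene was called. The signal carriers fell. Stat5a went from 34.7, 41.7 and 32.8 CPM to 21.4, 20.1, 21.6 and 23.6 CPM (fell by 0.71, SE 0.19, adjusted p = 0.031), and Stat5b from 149, 140 and 112 CPM to 83, 69.8, 75.6 and 89 CPM (fell by 0.71, SE 0.17, adjusted p = 0.021). Both lost their calls with the GC trend removed (-0.54, adjusted p = 0.089, and -0.53, adjusted p = 0.062) and without Vehicle replicate 1 or 2 or LPS+TSLP replicate 2 or 3 (up to 0.13 and 0.1). The survival genes Bcl2 and Bcl2l1, which STAT5 can induce, rose by 1.02 (SE 0.23, adjusted p = 0.017) and 1.03 (SE 0.3, adjusted p = 0.045), the latter in 3 of 10 fits with 1 library left out (without Vehicle replicate 3, LPS replicate 1 or LPS+TSLP replicate 4) and the former not without Vehicle replicate 1 or 2 (up to 0.087).

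**Figure D3:**
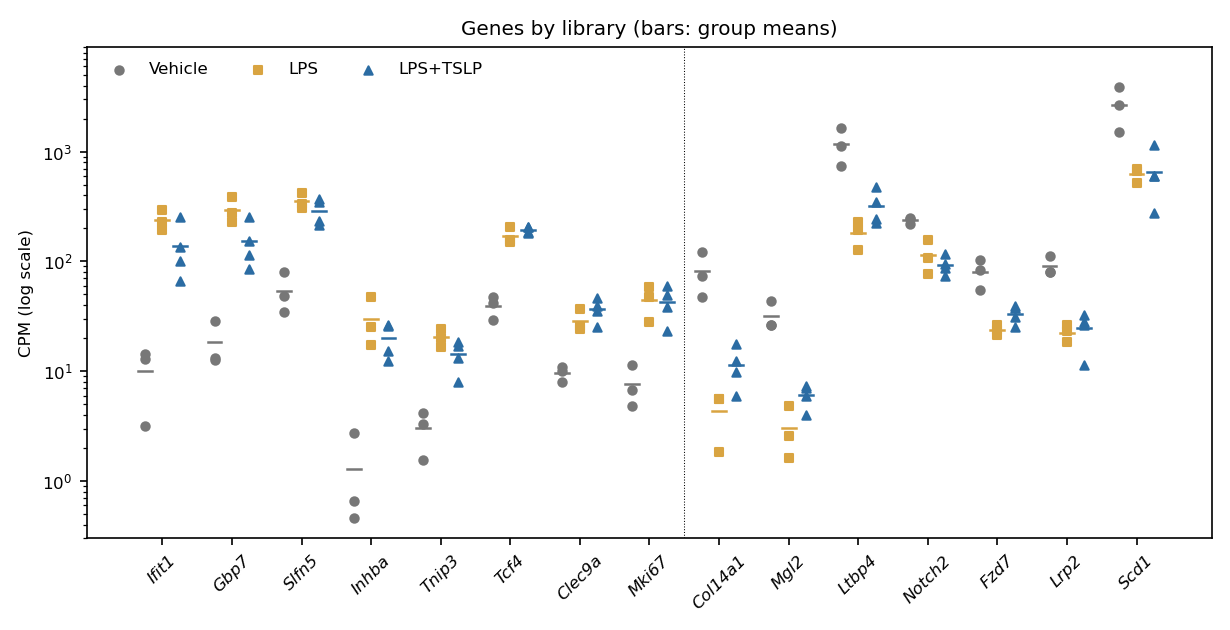
CPM on a log scale for 15 genes in every library, with group means as bars. The 8 genes left of the dotted line have all 4 LPS+TSLP libraries above all 3 Vehicle libraries, and the 7 genes to its right have all 4 below; Vehicle is the left column of each gene, LPS the middle and LPS+TSLP the right. Over all genes tested, 13.7% lay above and 18.3% below Vehicle in this way.

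Part of the matrix genes stayed below Vehicle. Of 29 collagen chains 0 rose and 6 fell (20.7%, against 5.35% of all genes), with a median of -0.73 (-1.1 for LPS, with 13 lower). The count was 1 without Vehicle replicate 1, 2 without LPS+TSLP replicate 2 or 3, 10 without LPS replicate 1 and 3 with the GC trend removed. Col14a1, a collagen that coats fibrils (chromosome 15, 55307750 to 55520803, GRCm38), had 123, 73.6 and 47.5 CPM in Vehicle, 17.7, 9.8, 6 and 12.5 CPM in LPS+TSLP and 1.85, 5.63 and 5.59 CPM in LPS. It fell by 2.78 against Vehicle (SE 0.45, adjusted p = 0.0045), and LPS+TSLP against LPS gave 1.39 (adjusted p = 0.59), although these groups did not overlap. Col6a3 and Col12a1 fell by 1.35 (SE 0.29, adjusted p = 0.015) and 2.06 (SE 0.46, adjusted p = 0.016), not without Vehicle replicate 1 (0.064 and 0.074), nor without LPS+TSLP replicate 3 and 2 respectively. The main fibril chain Col1a1 had 1040, 1100 and 1590 CPM against 496, 669, 574 and 889 CPM (-0.88, SE 0.35, adjusted p = 0.11), without overlap, and passed without LPS replicate 1 (adjusted p = 0.027). It also passed with the replicate block and without both LPS+TSLP replicate 1 and LPS replicate 1.

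Elastic fibre genes had 4 of 25 lower (16%), fibroblast markers 5 of 33 lower and 1 higher, and metalloproteinases and their inhibitors 3 of 26 lower and 1 higher. Without Vehicle replicate 1 the lower members numbered 2, 2 and 1, and without LPS+TSLP replicate 4 the elastic fibre genes had 7 and the metalloproteinases 7. Ltbp4, which tethers latent TGF-beta to elastic fibres, had 1640, 1120 and 737 CPM in Vehicle and 224, 347, 244 and 475 CPM in LPS+TSLP (fell by 1.82, SE 0.34, adjusted p = 0.008). Fbln2, fibulin-2, fell by 2.03 (SE 0.37, adjusted p = 0.0072), the gelatinase Mmp2 by 1.27 (SE 0.23, adjusted p = 0.0079), and the adventitial fibroblast gene Pi16 from 62, 69.1 and 58 CPM to 28.6, 11.4, 15.8 and 23.3 CPM (by 1.63, SE 0.28, adjusted p = 0.0059). All 5 of Col14a1, Ltbp4, Fbln2, Mmp2 and Pi16 were called under the 22 fits. Fbln1, fibulin-1, fell by 1.72 (SE 0.38, adjusted p = 0.017), and without Vehicle replicate 1 its value was -1.12 (adjusted p = 0.086). It was also lost without Vehicle replicate 2 or LPS+TSLP replicate 3. The mesothelial and fibroblast enzyme Aldh1a2, which makes retinoic acid, fell by 1.92 (SE 0.26, adjusted p = 0.0024; all 22 fits). Smooth muscle contractile genes had 0 of 22 called (4 lower without LPS+TSLP replicate 1; median -0.24, and -0.79 with 7 lower for LPS), and Acta2, smooth muscle actin, was at -0.47 (adjusted p = 0.32).

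Of 18 Notch receptors, ligands and targets 6 fell and 0 rose (33.3%; median -0.49). The fallen numbered 2 without Vehicle replicate 1 or 2 or LPS+TSLP replicate 2 or 3 and 8 without Vehicle replicate 3, and with the GC trend removed 3 fell and 1 rose. Notch2 had 243, 247 and 220 CPM in Vehicle and 95.4, 73.8, 87.4 and 118 CPM in LPS+TSLP (fell by 1.3, SE 0.24, adjusted p = 0.0074; all 22 fits). Notch1 went from 310, 307 and 258 CPM to 59.7, 76.9, 86.3 and 121 CPM (fell by 1.73, SE 0.39, adjusted p = 0.018), and the mural cell receptor Notch3 fell by 1.16 (SE 0.31, adjusted p = 0.031). The last 2 were lost without Vehicle replicate 1 or 2 or LPS+TSLP replicate 2 or 3 (up to 0.062 and 0.1), and Notch3 also with the GC trend removed (-0.97, adjusted p = 0.076). The Hairy-related factor Hes2 fell from 7.37, 4.3 and 1.13 CPM to 0.309, 0.292, 0.167 and 0.426 CPM (by 3.78, SE 0.65, adjusted p = 0.006; all 22 fits).

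Wnt genes had 7 of 37 lower and 0 higher (18.9%; median -0.69), with 1 lower without Vehicle replicate 2, 2 without Vehicle replicate 1 or LPS+TSLP replicate 2 or 3, 11 without LPS+TSLP replicate 1 and 3 with the GC trend removed. The receptor Fzd7 went from 102, 83.5 and 54.9 CPM to 31, 39.1, 25.4 and 37.6 CPM (fell by 1.24, SE 0.23, adjusted p = 0.0082; all 22 fits). Fzd2 fell by 1.48 (SE 0.31, adjusted p = 0.013; up to 0.062 without Vehicle replicate 1 or 2) and Fzd1 by 1.25 (SE 0.31, adjusted p = 0.025; up to 0.08 without Vehicle replicate 1 or 2 or LPS+TSLP replicate 2 or 3 and 0.058 with the GC trend removed). In the list of TGF-beta, BMP and Hedgehog genes 7 of 39 fell and 2 rose (17.9% and 5.13%), with 1 lower without Vehicle replicate 1, 3 without Vehicle replicate 2 or LPS+TSLP replicate 2 or 3, and 3 with the GC trend removed. Inhba, the subunit of activin A, rose from 0.457, 0.653 and 2.72 CPM to 25.7, 12.3, 26.4 and 15.2 CPM (4, SE 0.63, adjusted p = 0.0041). It was called under all 22 fits. The Hedgehog receptor Ptch1, itself a Hedgehog target, fell by 1.51 (SE 0.31, adjusted p = 0.012), but not without Vehicle replicate 1 or 2 (up to 0.06).

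Of 41 endothelial identity genes 6 fell and 1 rose (14.6% and 2.44%; median -0.41). The fallen numbered 0 without Vehicle replicate 1 or 2 or LPS+TSLP replicate 2 or 3 and 10 without LPS+TSLP replicate 4. Their summed level was 15600, 15800 and 12600 CPM in Vehicle and 7770, 12700, 11300 and 13500 CPM in LPS+TSLP. The VEGF receptor Kdr had 673, 752 and 384 CPM in Vehicle and 194, 202, 239 and 307 CPM in LPS+TSLP (fell by 1.32, SE 0.3, adjusted p = 0.018). The lymphatic receptor Flt4 fell by 1.22 (SE 0.28, adjusted p = 0.019), the arterial connexin Gja5 by 1.22 (SE 0.27, adjusted p = 0.017), and Vwf, von Willebrand factor, by 1.82 (SE 0.46, adjusted p = 0.026; -1.63 and adjusted p = 0.051 with the GC trend removed). Angpt1, the ligand that keeps vessels tight, rose from 11, 13.1 and 24.1 CPM to 46.7, 72, 61.7 and 85.6 CPM (2.09, SE 0.3, adjusted p = 0.0031) and held with any 1 library left out, but with the GC trend removed its value was 0.79 (adjusted p = 0.056). The risen endothelial gene was the adrenomedullin receptor Calcrl (2, SE 0.52, adjusted p = 0.03), with 0.28 (adjusted p = 0.65) once the GC trend was removed. Kdr, Flt4, Gja5, Vwf and Calcrl were each lost without Vehicle replicate 1 or 2 or LPS+TSLP replicate 2 or 3 (adjusted p up to 0.078, 0.072, 0.085, 0.079 and 0.12).

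Epithelial lists had few members higher, and their shares of lower members differed (5.35% over all genes). Club and secretory cell markers had 0 of 25 called, and ciliated cell markers 1 of 32 higher and 0 lower. Without LPS+TSLP replicate 1 the ciliated list had 12 lower, and its summed level was 2010 CPM in that library, against 793, 847 and 950 CPM in the other LPS+TSLP libraries and 1260 to 1490 CPM in Vehicle. Alveolar type 2 markers had 1 of 31 higher and 4 lower (12.9%; median -0.57), with 1 lower without Vehicle replicate 2, 2 without Vehicle replicate 1 or LPS+TSLP replicate 2 or 3, and 7 lower (median -0.3) without LPS+TSLP replicate 1. The endocytic receptor Lrp2 had 80.6, 112 and 79.9 CPM in Vehicle and 11.4, 28.2, 26.6 and 32.5 CPM in LPS+TSLP (fell by 1.85, SE 0.29, adjusted p = 0.0043; all 22 fits). Abca3, the transporter that loads surfactant lipid, fell by 1.65 (SE 0.49, adjusted p = 0.046), in 4 of 10 fits with 1 library left out (without LPS replicate 1 or 3 or LPS+TSLP replicate 1 or 4; adjusted p up to 0.13) and not with the GC trend removed (adjusted p = 0.082). Lamp3, known from lamellar bodies and from mature dendritic cells, was higher by 2.32 (SE 0.52, adjusted p = 0.017) with 0.82 (adjusted p = 0.17) once the GC trend was removed, and was lost without Vehicle replicate 1 or 2 (up to 0.081). Surfactant protein C (Sftpc) had 15400, 10100 and 8090 CPM against 1700, 13600, 7380 and 5940 CPM (-0.63, SE 0.61, adjusted p = 0.51). The type 2 list summed to 37000, 30200 and 25900 CPM in Vehicle and 6200, 31000, 21800 and 24500 CPM in LPS+TSLP. Alveolar type 1 markers had 1 of 26 higher and 1 lower (0 in either direction without Vehicle replicate 1 or 2). They summed to 17000, 13900 and 12800 CPM in Vehicle and 4340, 13800, 10100 and 13600 CPM in LPS+TSLP. Both sums were lowest in LPS+TSLP replicate 1. Of 27 fluid and ion transport genes 3 fell (11.1%) and 0 rose (1 fell without Vehicle replicate 1 or 2, 5 without LPS+TSLP replicate 1 or 4), among them the chloride channel Ano1, from 129, 101 and 79.1 CPM to 12.7, 21.3, 18.4 and 51 CPM (by 1.96, SE 0.39, adjusted p = 0.011; all 22 fits). Tight and adherens junction genes had 3 of 30 lower (10%) and 0 higher, with 0 lower without Vehicle replicate 1 or 2 or LPS+TSLP replicate 2.

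Some lipid synthesis genes fell. Of 25 cholesterol synthesis and uptake genes 5 fell and 0 rose (20%; median -0.57, and -0.37 for LPS). The count was 0 without Vehicle replicate 1 or 2 or LPS+TSLP replicate 2, 9 without LPS+TSLP replicate 4 and 2 with the GC trend removed. Insig1, which restrains sterol synthesis and is itself a sterol-responsive target, fell by 1.04 (SE 0.23, adjusted p = 0.017; up to 0.069 without Vehicle replicate 1 or 2 or LPS+TSLP replicate 2 or 3). Dhcr7, the last step of cholesterol synthesis, had 28.6, 30.3 and 28.5 CPM in Vehicle and 15.1, 15.9, 21.2 and 18.9 CPM in LPS+TSLP (fell by 0.68, SE 0.17, adjusted p = 0.028; lost with the GC trend removed, adjusted p = 0.087, and without Vehicle replicate 1 or 2 or LPS+TSLP replicate 2, up to 0.11). The fatty acid desaturase Scd1, from the alveolar type 2 list, fell from 2690, 3890 and 1500 CPM to 276, 596, 599 and 1150 CPM (by 2.01, SE 0.43, adjusted p = 0.014; 0.064 without Vehicle replicate 2).

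All 13 mitochondrially encoded mRNAs, which specify subunits of respiratory complexes I, III, IV and V, were higher than in Vehicle, with a median of 3.01. For all 13, every LPS+TSLP library lay above every Vehicle library, as it did for 13.7% of all genes tested. Without Vehicle replicate 1, 5 passed, and without Vehicle replicate 2, 8. In LPS against Vehicle 4 passed (median 1.14). mt-Atp6 had 10.7, 16.3 and 21.4 CPM in Vehicle and 990, 331, 157 and 33.6 CPM in LPS+TSLP (rise of 4.61, SE 0.99, adjusted p = 0.014; up to 0.077 without Vehicle replicate 1 or 2). mt-Co1, the most abundant, had 5930, 6790 and 6360 CPM against 73300, 25100, 21100 and 8070 CPM (rise of 2.38, SE 0.67, adjusted p = 0.038), and without LPS+TSLP replicate 1 its value was 1.54. It was lost without any Vehicle library, LPS replicate 2 or LPS+TSLP replicate 2 or 3 (up to 0.14), and was named after its values were seen. mt-Nd6, the gene of the light strand, rose by 3.12 (SE 0.38, adjusted p = 0.0021), mt-Co2 by 3.46 (SE 0.59, adjusted p = 0.0056) and mt-Nd2 by 2.53 (SE 0.42, adjusted p = 0.0049).

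In the direct comparison of LPS+TSLP with LPS these mRNAs had a median of 1.7, and 0 passed. With the GC trend removed 1 of the 13 was still called against Vehicle and their median was 1.31. Of the 50-base stretches of mt-Atp6 and mt-Co2, 100% also occur in another annotated gene, and 50.8% of those of mt-Co1. Subunits of the same chain that are encoded in the nucleus had 3 of 32 higher (9.38%; median 0.37), near the share over all genes, with 0 higher without any 1 Vehicle library or LPS+TSLP replicate 2 or 3. The part of the mitochondrial share of counts in these rises was not tested.

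**Figure D4:**
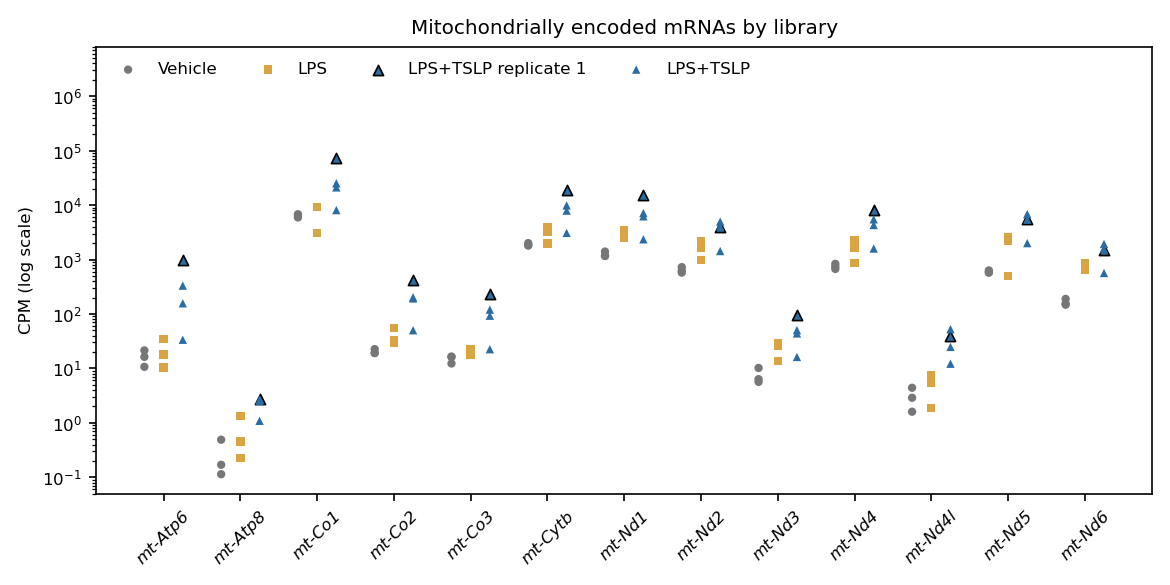
CPM on a log scale for the 13 mitochondrially encoded mRNAs in each library, by group (Vehicle left, LPS middle, LPS+TSLP right), with LPS+TSLP replicate 1 outlined in black. Every LPS+TSLP library lies above every Vehicle library, and LPS+TSLP replicate 4 is the lowest of its group for each mRNA.

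The base composition of genes moved with the comparison. Genes called higher had a median GC content of 42.1%, genes called lower 52.6% and uncalled genes 50.5%. Genes were put in 10 equal classes by GC content. In the class with the lowest GC content (22.1% to 42.2%), 44.1% were called higher and 0.117% lower, with a median log2 fold change of 1.2 (1.26 for LPS against Vehicle). In the class with the highest GC content 1.69% were higher and 7.3% lower. The deviation of the lowest class from the mean of all libraries was -0.98, -0.89 and -0.49 in Vehicle, -0.12, 0.45, 0.45 and 0.46 in LPS+TSLP and 0.3, 0.42 and 0.54 in LPS (medians, log2 CPM). Removal of that trend left 767 calls upward, 653 of them also called so before it, and 648 downward, 376 of them so before. The removal also takes out any response that AT-rich genes share, and base composition and treatment cannot be told apart here.

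**Figure D5:**
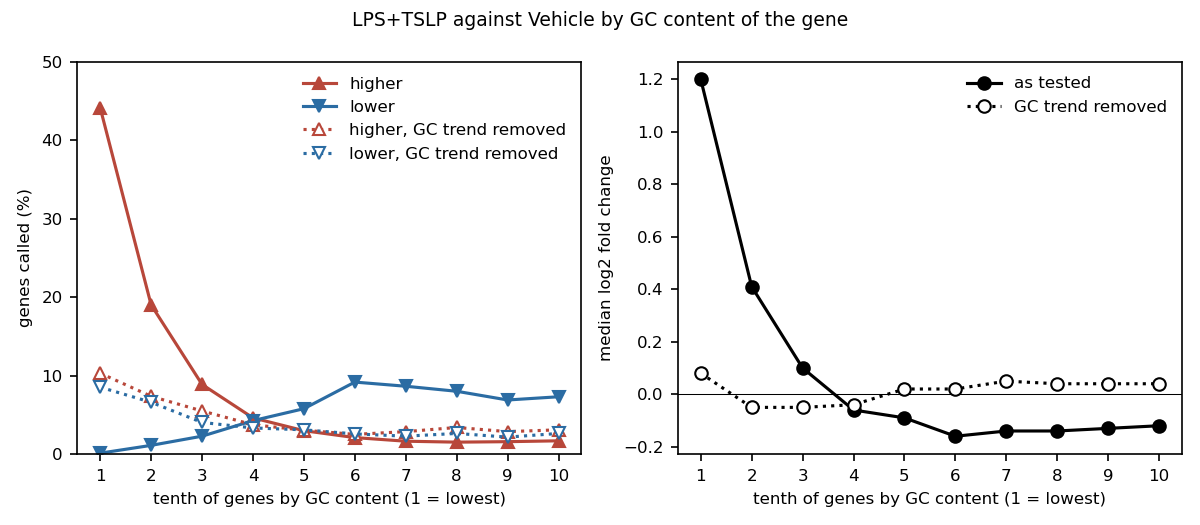
Left, percent of genes called higher or lower in LPS+TSLP against Vehicle in each of 10 classes of genes ordered by GC content. Right, their median log2 fold change. Filled symbols are the values as tested, where 44.1% of the lowest class was called higher; open symbols are after each library's GC trend was removed, where 10.3% was.

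Zinc finger genes were among the largest rises. Zfp991, a zinc finger gene, had 0.286, 0.163 and 0.17 CPM in Vehicle and 4.27, 6.83, 8.89 and 7.17 CPM in LPS+TSLP (rise of 5.03, SE 0.4, adjusted p = 0.00035). It was called under all 22 fits, at 3.14 with the GC trend removed, and 82.8% of its 50-base stretches occur in other genes. Zfp960 (4.6) and Zfp947 (4.32) rose likewise and were lost without Vehicle replicate 1 or 2 (adjusted p up to 0.073 and 0.06), Zfp947 also with the GC trend removed (2.95, adjusted p = 0.051), and Zfp947, without Vehicle replicate 3, was at 8.08. Of the 354 tested protein-coding genes named Zfp and a number, a group chosen after their values were seen, 94 were higher and 10 lower, beside 1242 and 891 of all 14671 protein-coding genes tested. Their median was 0.31, and their median GC content was 45.4%, against 50.4% for all protein-coding genes tested. The median of 45.4% lies in class 3 of the 10 by GC content (44.6% to 46.5%), where 8.87% of genes were higher. Members with less GC fall also in class 1 and class 2, where 44.1% and 19% of genes were higher. Class 3 alone is therefore no matched baseline for this group. With the GC trend removed 43 of the 354 were higher and 6 lower, beside 639 and 623 of the 14671 protein-coding genes. The medians were then 0.08 and -0.02. Tmed5, of vesicle transport, had 5.83, 4.46 and 7.26 CPM in Vehicle and 35.9, 138, 132 and 90.3 CPM in LPS+TSLP (rise of 4.11, SE 0.43, adjusted p = 0.0013; all 22 fits, 3.04 with the GC trend removed).

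Other genes with the largest rises were near 0 in Vehicle. Eppin, a protease inhibitor of the epididymis, had 0 counts in the 3 Vehicle libraries together and 72 in LPS+TSLP (1.36, 1.11, 1.11 and 0.669 CPM), at least 19-fold higher when Vehicle is set to 3 counts over its libraries. The synaptic organiser Cbln1 had 3 and 91 counts, a ratio of 24 (95% exact interval 7.94 to 118, counting error only), and Gm3468 had 3 and 80 (21.1, interval 6.95 to 104), with 85.8% of its 50-base stretches shared. Gm3468 was at 7.36 without Vehicle replicate 3, and these 3 calls were lost without Vehicle replicate 1 or 2 (adjusted p up to 0.07, 0.065 and 0.081). The uncharacterised 5430403G16Rik rose by 4.42 (SE 0.61, adjusted p = 0.0026; all 22 fits), and Gm6377 by 4.12 (SE 0.71, adjusted p = 0.0059), with 1.69 (adjusted p = 0.051) once the GC trend was removed.

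Among the largest falls were genes of fat cells. The adipsin gene Cfd had 18, 156 and 14.7 CPM in Vehicle and 4.45, 0.35, 0.833 and 0.426 CPM in LPS+TSLP (fell by 5.33, SE 1.5, adjusted p = 0.035), and without Vehicle replicate 2 by 3.35 (adjusted p = 0.19). Plin1 of lipid droplets, Car3, a carbonic anhydrase of fat and muscle, and Retn, resistin, fell by 4.81, 4.12 and 3.98, and each was lost without Vehicle replicate 2 (adjusted p = 0.08, 0.22 and 0.085; Car3 at -2.65). Cfd and Car3 were also lost without Vehicle replicate 1 or LPS+TSLP replicate 2, 3 or 4 and with the GC trend removed (adjusted p = 0.059 and 0.051). In subsets of the marker list that were set after the values were seen, the summed level of 7 adipocyte genes was 56.1, 234 and 41.2 CPM in Vehicle and 19.3, 9.69, 10.3 and 9.24 CPM in LPS+TSLP, and Adipoq, adiponectin, was at 0 in LPS+TSLP replicates 1, 2 and 4 and at 0.111 CPM in replicate 3. The summed level of 13 heart and skeletal muscle genes was 52.6, 601 and 38.8 CPM in Vehicle and 595, 27.2, 164 and 16.4 CPM in LPS+TSLP. Of the whole list of 28 such markers 19 were tested, with 4 lower and 0 higher (1 lower without Vehicle replicate 2), and the part of the amount of attached tissue in these falls was not tested.

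Further large falls were of low or moderate genes. Pla2g2d, a phospholipase of resident myeloid cells, had 3.43, 1.47 and 1.19 CPM in Vehicle and 0.124, 0.0584, 0.111 and 0.122 CPM in LPS+TSLP (fell by 4.17, SE 0.59, adjusted p = 0.0031; all 22 fits). Scube2, a secreted partner of Hedgehog release, went from 80.2, 64.3 and 17.1 CPM to 6.24, 2.74, 4.78 and 10.5 CPM (fell by 3.12, SE 0.63, adjusted p = 0.012; 0.057 without Vehicle replicate 1). The polarity gene Crb2 had 69 counts in Vehicle and 3 in LPS+TSLP, a ratio of 29.1 (95% exact interval 9.56 to 145), lost without Vehicle replicate 1 or 2 or LPS+TSLP replicate 2 or 3 (up to 0.11). Tmem255b, the ficolin Fcna and the calcium-binding Cpne5 fell by 3.5, 3.05 and 2.8. They were lost without Vehicle replicate 1 (Tmem255b, adjusted p = 0.07, also without Vehicle replicate 2 or LPS+TSLP replicate 3, and Cpne5, at -1.86 with adjusted p = 0.11) or Vehicle replicate 2 (Fcna, adjusted p = 0.062).

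Stress and growth genes moved in small numbers. The proliferation marker Mki67 rose from 6.8, 4.84 and 11.4 CPM to 23.1, 59.9, 49.2 and 38.8 CPM (2.51, SE 0.39, adjusted p = 0.0038; all 22 fits), while the 39 cell cycle genes as a list had 3 higher and 4 lower (median -0.09; 1 and 0 without Vehicle replicate 1 or 2). The immediate early gene Klf6 rose by 1.51 (SE 0.28, adjusted p = 0.0085; up to 0.055 without Vehicle replicate 1 or 2), as 1 of 3 risen among 30 (0 without Vehicle replicate 1 or 2, 6 without LPS+TSLP replicate 1). Of 34 heat shock and ER stress genes 4 rose and 2 fell (11.8% and 5.88%, near the 8.82% and 5.35% of all genes), with 0 in either direction without Vehicle replicate 1 or 2. The stress factor Atf4 rose by 1.06 (SE 0.26, adjusted p = 0.023; up to 0.13 without Vehicle replicate 1 or 2 or LPS+TSLP replicate 3). The ER chaperone Hsp90b1 rose by 1.21 (SE 0.27, adjusted p = 0.018), with 0.71 (adjusted p = 0.11) once the GC trend was removed, and was lost without Vehicle replicate 1 or 2 (up to 0.085). Cytosolic ribosomal proteins had 1 of 35 higher and a median of 0.45, where LPS against Vehicle had 17 higher and a median of 0.85.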

How the data were processed

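Whole lung RNA was sequenced in 10 libraries (Vehicle 3, LPS 3, LPS+TSLP 4), grouped by the labelled treatment. The authors deposited raw read counts per gene. Per the submitters' processing notes the tools were CASAVA, HISAT2 and HTSeq 0.6.0 and the build GRCm38/mm10. The annotation release and strand setting are not given in the sources used here, so overlapping antisense genes cannot be told apart.

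Counts were filtered with filterByExpr (17139 genes), scaled by TMM and given to the robust quasi-likelihood test of edgeR (4.0.16, run in R 4.3.3), 2-sided, with all 10 libraries in 1 fit of 3 groups (7 residual degrees of freedom) and Benjamini-Hochberg adjustment over all genes tested. A gene was called at an adjusted p under 0.05. Standard errors are the log2 fold change over the square root of F. Log2 CPM used a prior count of 2. Libraries within a group all differed beyond sampling noise (chi-square per degree of freedom 30 to 217). The test script was tested on simulated data. Alternatives were DESeq2 1.42.0 (Wald test and size factors), limma-voom (3.58.1), other filters, only the 2 groups compared, a replicate block, GC trend removal by loess (span 0.3), removal of haemoglobin, mitochondrial and immunoglobulin genes, and leaving out libraries.

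The members, the 56 lists and the tests were chosen with earlier results of these data known. No test over a list was made. Named are the 12 largest and 12 smallest log2 fold changes among called protein-coding genes with at least 1 CPM and no overlap, up to 5 members per list with the smallest p, and a fixed set of anchor genes. Other called list members, the defining tissue genes and genes chosen after their values were seen, such as mt-Co1, could be named too. Not all of them have a sentence here. Shared stretches are the percent of 50-base stretches (1 in 8 sampled) of a gene's transcripts found in another annotated gene, on either strand. GC content, biotype and position came from a reference annotation on GRCm38, and promoters from RefSeq.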

Additional observations from a re-analysis of the deposited data

Results flagged for a closer look

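In the 4 LPS+TSLP libraries, the highest or lowest value was looked at for a gap to the nearest other that exceeded the critical share of the range (Dixon, 95%). Of 125 genes named in the text 6 had such a gap, and of 56 list means 1. Chance alone gives about 1 in 20 such gaps. LPS+TSLP replicate 1 had 1060 CPM of Lcn2, against 4860 to 5320 CPM in the other 3, 4.45 CPM of Cfd, against 0.35 to 0.833 CPM, and 0.0618 CPM of Tmem255b, against 0.167 to 0.182 CPM. LPS+TSLP replicate 2 had 2.1 CPM of Gm3468, against 0.79 to 0.927 CPM, and 0 CPM of Plin1, against 0.222 to 0.247 CPM. LPS+TSLP replicate 3 had 133 CPM of Ccl4, against 39 to 43.3 CPM, and the mean of the chemokine list was 5.98 on the log2 CPM scale in that library, against 5.06 to 5.08 in the others.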

How the results depend on the processing

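Higher and lower genes numbered 1511 and 917 against Vehicle. The DESeq2 Wald test gave 2296 and 1629, removal of the GC trend 767 higher, the replicate block 1592 lower, and the fit without both LPS+TSLP replicate 1 and LPS replicate 1 gave 2333 and 1509. Leaving out 1 library each gave 404 to 2015 higher and 81 to 1478 lower genes. LPS+TSLP against LPS had 0 calls, 35 by DESeq2 and 0 to 1 with 1 library left out. The labels do not name the replicate numbers as a pairing, and groups of 3 or 4 libraries cannot settle it. Same-numbered libraries had correlations of their deviations from -0.34 to 0.4, and differently numbered ones from -0.46 to 0.37. With the replicate block 1862 genes were higher. Of the 105 calls among 125 genes named, the block lost 4 (Car3, Ccl11, Ccl24 and Cfd, and gained Col1a1, Cxcl2 and Tnf) and GC removal 29. The block with GC removal lost 25, the fit with no filter 18, limma-voom 9, the fit of only the groups compared 9 and the DESeq2 Wald test 0, which gave no adjusted p for Car3 and Cfd, while leaving out Vehicle replicate 1 lost 59, Vehicle replicate 2 lost 61, LPS+TSLP replicate 2 lost 33 and LPS+TSLP replicate 3 lost 39. The cause of these changes was not tested. Signs changed for Calcrl (-0.13, replicate block with the GC trend removed), S100a8 (-0.06, same fit), Tslp (-0.06, GC trend removed) and Il10 (0.15; -0.24 to 0.78 with 1 library left out; -0.13 with the GC trend removed, -0.14 without Vehicle replicate 2, -0.01 without Vehicle replicate 3, -0.24 without LPS+TSLP replicate 1 and -0.22 without both replicate 1 libraries). Between 16175172 and 18374461 counts per library limit the precision for genes with few counts.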

Other observations

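Of the genes called higher, 17.8% were not protein coding, against 2.84% of those called lower and 14.4% of all genes tested. They included 63 lincRNAs, 62 unverified transcripts (biotype TEC), 34 processed pseudogenes, 8 mitochondrial tRNAs and both mitochondrial rRNAs. The genes called lower that were not protein coding included 13 immunoglobulin variable segments.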
